A study of Homo sapiens with 6 samples.

Results

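The BCL2 family decides whether a cell under stress lets its mitochondria be opened. BCL2L1 (BCL-XL), MCL1 and BCL2L2 (BCL-W) are guardians that hold apoptosis back, BAX and BAK1 are the effectors that perforate the outer mitochondrial membrane, and the BH3-only proteins BID, BCL2L11 (BIM), BBC3 (PUMA), PMAIP1 (NOXA) and BIK relay death signals to both. Carcinoma cells often lean on MCL1 or BCL-XL to survive chemotherapy, and L1CAM, an adhesion molecule of neurons and of several carcinomas, has been linked to chemoresistance. The study behind these data reports the reverse for pancreatic cancer, where it associates low L1CAM with a weaker response to gemcitabine. The 10 genes named here were taken by symbol from the table of read counts, and all 10 were found among its 19469 genes.

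The counts came from L3.6pl, an established human pancreatic cancer line (1 label field spells it L6.6pl). The study's methods call it a ductal adenocarcinoma line from a metastatic lymph node and give its carcinoma type as adenosquamous. Another label field also calls the disease adenosquamous. Untreated cells grown in DMEM with serum were sorted by FACS on surface L1CAM into an L1CAM-positive (L1high) and an L1CAM-negative (L1low) population, with 3 mRNA libraries of each. Both populations are fractions of the same line, so the contrast is one of natural L1CAM level and not of a knockout, and the labels do not say whether the 3 libraries came from separate sorts. The p-values therefore measure the spread between these libraries only, which may be technical. RNA was measured in bulk, so that fewer cells expressing a gene and less RNA per cell cannot be told apart.

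Counts on genes ran from 16334610 to 21064685 per library. L1CAM itself stood at 84.0, 69.8 and 89.5 CPM (TMM-scaled reads per 1e6 counted) in replicates 1, 2 and 3 of L1high and at 17.7, 23.7 and 19.99 in L1low, a log2 fold change of -1.99 (standard error 0.12; L1low against L1high). All 7 ductal epithelial markers fixed for the check were present, KRT7 at a mean of 1624 CPM in L1high and 1819 in L1low, with KRT19 called higher and EPCAM called lower in L1low. Of 10 markers of fibroblasts, immune cells and endothelium, 4 had values and the other 6 (COL1A2, DCN, PDGFRB, PTPRC, CD3E and CDH5) were absent from the genes tested. The deposited counts hold only genes that exceeded 1 CPM in at least 2 libraries. The summed level of those 4 was 100 to 111 CPM in L1high and 155 to 174 in L1low, most of it LUM.

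The feature that unites these 10 genes is the BH3 stretch, a short helix by which guardians, effectors and BH3-only proteins dock onto each other. Its reference coding sequence is printed below for each gene, 10 codons from the canonical transcript of GENCODE 44 on GRCh38, because no other sequence is shared by the whole family. Capitals mark the codon of the conserved leucine (methionine in BCL2L2) and the pair of codons for glycine (alanine in BBC3) and aspartate.
BCL2L1 (chr20:31721928-31721957, minus strand): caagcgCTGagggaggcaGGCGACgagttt
MCL1 (chr1:150578871-150578900, minus strand): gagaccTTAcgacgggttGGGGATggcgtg
BCL2L2 (chr14:23307897-23307926, plus strand): caagccATGcgggcagctGGAGATgagttc
BAX (chr19:48955781-48955810, plus strand): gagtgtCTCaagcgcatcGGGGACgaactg
BAK1 (chr6:33575393-33575422, minus strand): cggcagCTCgccatcatcGGGGACgacatc
BID (chr22:17739421-17739450, minus strand): aggcacCTCgcccaggtcGGGGACagcatg
BCL2L11 (chr2:111150097-111150126, plus strand): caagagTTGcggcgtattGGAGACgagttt
BBC3 (chr19:47226585-47226614, minus strand): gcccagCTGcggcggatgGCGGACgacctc
PMAIP1 (chr18:59902667-59902696, plus strand): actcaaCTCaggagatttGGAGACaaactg
BIK (chr22:43127710-43127739, plus strand): ctgcggCTGgcctgcatcGGGGACgagatg
Each canonical protein held 1 match to the pattern used to find the stretch, which is leucine or methionine, any 3 residues, glycine or alanine, aspartate, and then aspartate, glutamate, glycine, lysine or serine. The pattern was written with these proteins in mind and is not specific, since 10.9% of 20046 canonical coding transcripts hold it. In each gene the 30 bases lay inside 1 exon. BAX, BAK1, BID and BIK spell the glycine and aspartate codons alike (GGGGAC), while MCL1 uses GGGGAT and BCL2L2 uses GGAGAT.

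Of the 10 genes, 1 passed the test in edgeR's quasi-likelihood fit over all 6 libraries (MCL1, higher in L1low cells), and none was called lower. Over the whole table, 7.95% of 19467 genes tested were called, 4.58% higher and 3.37% lower in L1low, so 1 call in 10 is near the background. None of the 10 was called over the 5 libraries without L1high replicate 3, where 7.57% of all genes were. Over all 6 libraries, 2 of the 10 (MCL1 and BCL2L2) had an unadjusted p under 0.05, beside 23.3% of all genes. The median log2 fold change of the 10 genes was 0.10, against -0.01 over all genes tested, with 6 of the 10 above 0 and 4 below, beside 48.5% of all genes above 0. In 3 of the 10 the libraries of the populations did not overlap (MCL1 and BCL2L2 higher, BID lower in L1low), where 28.8% of all genes did not (15.2% higher and 13.7% lower).

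**Figure D1:**
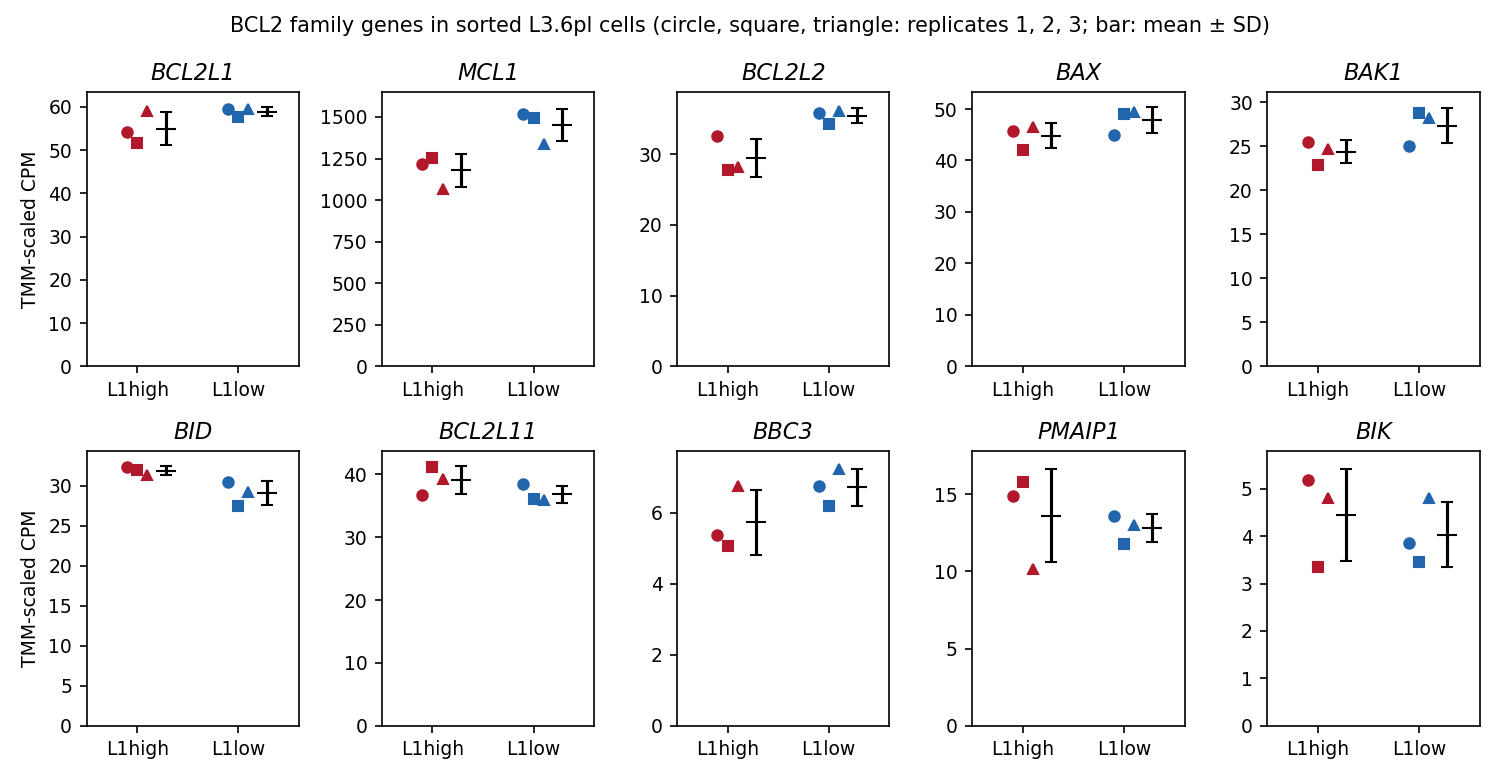
TMM-scaled CPM (vertical axis, from 0) of the 10 BCL2 family genes in L1high (red) and L1low (blue) libraries; circles, squares and triangles are replicates 1, 2 and 3, and the bar is the mean ± SD (n = 3). MCL1 and BCL2L2 lie higher and BID lower in all 3 L1low libraries, and the other 7 genes overlap.

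Among the guardians, MCL1, a short-lived protein that neutralises BIM, PUMA, NOXA and BAK, was the only member called. MCL1 (ENSG00000143384, GRCh38 chr1:150560895-150579738, minus strand) stood at 1218, 1253 and 1066 CPM in replicates 1, 2 and 3 of L1high and at 1518, 1495 and 1340.5 in L1low replicates 1, 2 and 3. Every L1low library thus exceeded every L1high library, although replicate 3 was the lowest in both populations. The log2 fold change was 0.30 (standard error 0.07, 95% interval 0.14 to 0.46), a 1.23-fold difference, with a Benjamini-Hochberg adjusted p of 0.032 (edgeR, quasi-likelihood). The call was lost in 4 of the 6 fits that left out a library. Over the 5 libraries without L1high replicate 3, which the study's own comparison uses, the log2 fold change was 0.24 (adjusted p = 0.071 in the same edgeR fit). It was 0.32 without L1high replicate 1 (adjusted p = 0.096), 0.27 without L1low replicate 1 (adjusted p = 0.094) and 0.28 without L1low replicate 2 (adjusted p = 0.16). ADAMTSL4-AS1, a neighbouring noncoding gene on the same strand, shares 5.3% of the exon bases of MCL1 and had a log2 fold change of 0.49 (adjusted p = 0.038, edgeR; 0.080 over the 5 libraries) on a mean of 154.2 counts. ADAMTSL4, on the opposite strand, shares 0.7% of the MCL1 exon bases and had a log2 fold change of 0.41 (adjusted p = 0.064, edgeR). Over the 5 libraries the ADAMTSL4 value was 0.48 (adjusted p = 0.048 in the same edgeR fit). Gene-level counts do not separate the long, protective MCL1 isoform from the short one.

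**Figure D2:**
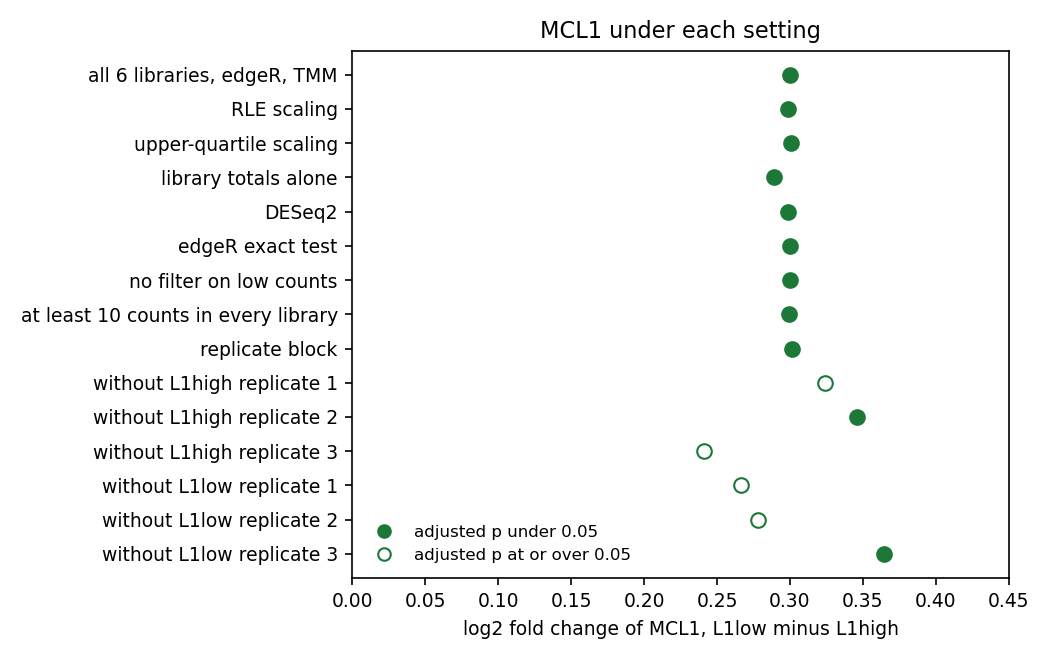
Log2 fold change of MCL1 (horizontal axis, L1low minus L1high) in the fit over all 6 libraries and under 14 other settings; filled points have an adjusted p under 0.05 and open points do not. The value stayed between 0.24 and 0.36, and the call was lost in 4 of the 6 fits that leave out a library.

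Some genes of cell handling and of the cell cycle also differed between the populations. Both gene lists were chosen with earlier results of these data known. Over all genes tested, 4.58% were called higher and 3.37% lower in L1low cells. Of 10 genes of the immediate early and heat shock response, which FACS handling can induce, 5 were called higher in L1low cells (FOS, FOSB, EGR1, IER2 and ATF3) and none lower. The heat shock genes of this list, HSPA1A (log2 fold change 0.02), HSPA1B (-0.05) and DNAJB1 (0.19), were not called. The summed level of all 10 was 7649 to 8264 CPM in L1high and 9596 to 10310 in L1low. Of 20 proliferation genes, 10 were called lower in L1low cells and none higher (CDK1, RRM2, CCNE2 and E2F1 by the most), and their summed level was 4516 to 4585 CPM in L1high and 3894 to 3988 in L1low. The part of either in the MCL1 difference was not tested.

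BCL2L2, the guardian BCL-W, came next in size. It stood at 32.6, 27.7 and 28.2 CPM in replicates 1, 2 and 3 of L1high and at 35.9, 34.2 and 36.1 in L1low, with no overlap between the populations. The log2 fold change was 0.26 (standard error 0.09, 95% interval 0.06 to 0.46), and it did not pass after adjustment (adjusted p = 0.11, edgeR). BCL2L2 shares 16.8% of its exon bases with the read-through gene BCL2L2-PABPN1 on the same strand, and the printed BH3 stretch lies in the region where these genes overlap. BCL2L2-PABPN1 was the more heavily counted (a mean of 995.7 counts) and had a log2 fold change of 0.04 (95% interval -0.17 to 0.26), and the BCL2L2 value is uncertain where the counting could split reads between these genes.

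BCL2L1, the guardian BCL-XL, stood at 54.2, 51.6 and 59.2 CPM in replicates 1, 2 and 3 of L1high and at 59.6, 57.7 and 59.4 in L1low. L1high replicate 3 lay among the L1low libraries, so the populations overlapped. The log2 fold change was 0.10 (standard error 0.08, 95% interval -0.07 to 0.27, adjusted p = 0.48 in edgeR), which bounds the difference at between 0.954-fold and 1.21-fold. The antisense noncoding gene ABALON covers 41.3% of the exon bases of BCL2L1. Its log2 fold change was 0.08 (95% interval -0.15 to 0.32), and without a stated strand setting the reads of a sense and antisense pair cannot be told apart. Nor do gene counts separate the protective long form of BCL-X from the pro-apoptotic short form.

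The effectors BAX and BAK1 were not called. BAX stood at 45.8, 42.0 and 46.6 CPM in replicates 1, 2 and 3 of L1high and at 44.9, 49.1 and 49.5 in L1low, with a log2 fold change of 0.09 (95% interval -0.08 to 0.27, adjusted p = 0.53 in edgeR). BAK1 stood at 25.5, 22.9 and 24.7 CPM in L1high and at 25.0, 28.8 and 28.2 in L1low, with a log2 fold change of 0.16 (95% interval -0.04 to 0.37, adjusted p = 0.33 in edgeR). In both genes L1low replicate 1 fell inside the L1high range and L1low replicates 2 and 3 lay above it. The level of BAK1 is uncertain, because the processed pseudogene BAK1P1 is 98.3% identical to its transcript over 636 bases and took a mean of 136.5 counts beside 481.5 for BAK1. BAK1P1 had a log2 fold change of -0.01 (95% interval -0.36 to 0.33).

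No BH3-only gene was called in either direction, and the signs were mixed. BID, which caspase-8 cleaves to carry death receptor signals to mitochondria, stood at 32.4, 32.0 and 31.4 CPM in replicates 1, 2 and 3 of L1high and at 30.5, 27.5 and 29.2 in L1low. All 3 L1low libraries of BID lay below the L1high libraries, by a log2 fold change of -0.14 (95% interval -0.32 to 0.05, adjusted p = 0.37 in edgeR). BCL2L11, whose product BIM binds every guardian, stood at 36.8, 41.2 and 39.2 CPM in L1high and at 38.4, 36.2 and 36.0 in L1low. The BCL2L11 populations overlapped, with a log2 fold change of -0.08 (95% interval -0.27 to 0.10, adjusted p = 0.59 in edgeR). The noncoding gene MIR4435-2HG, on the opposite strand, covers 10.8% of the BCL2L11 exon bases and had a log2 fold change of -0.21 (adjusted p = 0.17, edgeR).

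BBC3 and PMAIP1 differed in sign. BBC3 (PUMA) stood at 5.37, 5.06 and 6.76 CPM in replicates 1, 2 and 3 of L1high and at 6.77, 6.18 and 7.23 in L1low, with a log2 fold change of 0.24 (95% interval -0.10 to 0.57, adjusted p = 0.38 in edgeR). PMAIP1 (NOXA), which pairs chiefly with MCL1, stood at 14.9, 15.8 and 10.2 CPM in L1high and at 13.6, 11.8 and 13.0 in L1low. L1high replicate 3 was the lowest of all 6 PMAIP1 libraries and the other L1high replicates were the highest. The PMAIP1 log2 fold change was -0.09 (95% interval -0.43 to 0.24, adjusted p = 0.76 in edgeR), and it turned to 0.021 without L1high replicate 2 and to -0.25 without L1high replicate 3. BIK, an endoplasmic reticulum BH3-only protein, had the fewest reads of the 10 genes, with 110, 69 and 79 counts in L1high and 70, 62 and 85 in L1low. Its log2 fold change of -0.14 had the widest interval (-0.58 to 0.30), so that differences of up to 1.24-fold higher or 0.667-fold lower lay within it. The BIK value was -0.0069 without L1high replicate 1 and -0.31 without L1high replicate 2.

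**Figure D3:**
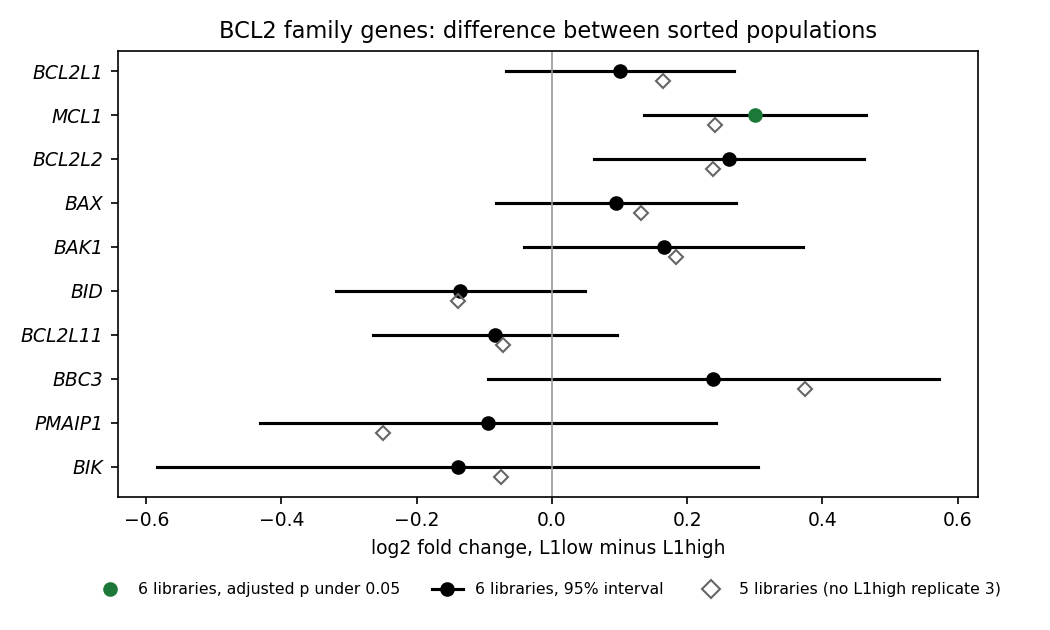
Log2 fold change (horizontal axis, L1low minus L1high) of the 10 genes over 6 libraries with 95% intervals (points and lines; green marks an adjusted p under 0.05) and over the 5 libraries without L1high replicate 3 (diamonds). The intervals of MCL1 and BCL2L2 lie above 0 and the other 8 include 0.

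Levels of different genes were compared per length, as TMM-scaled CPM per kb of all annotated exons. MCL1 led at 189.4 ± 16 in L1high and 233.2 ± 15.5 in L1low (SD, n = 3), 11.8 times the next gene, BAX, over the 6 libraries, and 15.6 times BCL2L1. Among all genes MCL1 ranked 44 of 19467 by mean CPM, where BCL2L1 ranked 4296, and these ranks are not corrected for length. The effectors and BCL-XL followed, with BAX at a mean of 17.9, BCL2L1 at 13.6 and BAK1 at 11.7 over the 6 libraries. The libraries of BAX lay above all those of BCL2L1, while those of BCL2L1 and BAK1 overlapped. BID (6.90), BCL2L2 (6.71), PMAIP1 (6.05), BCL2L11 (5.63) and BIK (4.46) formed a close group in which each overlapped its neighbour, and BBC3 was lowest at 1.96, below every BIK library. With the length of the canonical transcript in place of all exons, MCL1, BAX and BCL2L1 kept their places at the top and BBC3 its place at the bottom, while BAK1 and BID, and PMAIP1 and BCL2L11, changed places. The distances depended on the length: per kb of canonical transcript, MCL1 was 5.71 times BAX and BAX was 2.63 times BCL2L1, in place of 11.8 and 1.32 times per kb of all exons.

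**Figure D4:**
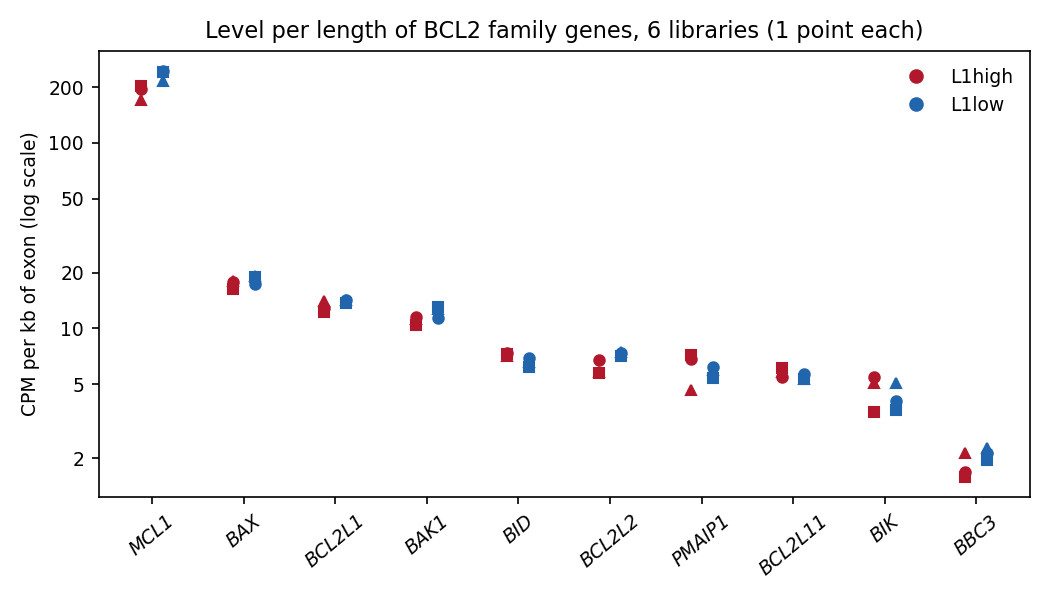
Level per length of the 10 genes, as TMM-scaled CPM per kb of exon on a log axis, 1 point for each L1high (red) and L1low (blue) library, ordered by the mean over 6 libraries. MCL1 lies between 171.3 and 244.0, above all other members, and BBC3 between 1.59 and 2.27, below them.

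A ratio between members within a library needs no scaling factor, and 7 pairs were compared as ratios of counts. For BCL-XL against BAX the ratio of counts was 1.18, 1.23 and 1.27 in replicates 1, 2 and 3 of L1high and 1.33, 1.18 and 1.20 in L1low, a log2 difference of 0.01 with overlapping populations (exact permutation test, two-sided, p = 0.9). For MCL1 against PMAIP1 it was 81.7, 79.4 and 104.8 in L1high and 111.7, 126.5 and 102.8 in L1low, a log2 difference of 0.36 with an overlap between L1high replicate 3 and L1low replicate 3 (exact permutation p = 0.2). The MCL1 ratios to BCL2L1 (log2 difference 0.20), to BAX (0.21) and to BAK1 (0.14) were likewise higher on average in L1low, and each overlapped between populations. Without L1high replicate 3 these differences were 0.07, 0.11 and 0.06, and without L1low replicate 1 that of MCL1 to BAK1 was 0.04. The ratio of BCL2L1 to BAK1 had a log2 difference of the other sign, -0.06, also with overlap (exact permutation p = 0.4). The ratio of BAX to BAK1 was the 1 pair without overlap, at 1.80, 1.83 and 1.88 in L1high and 1.79, 1.70 and 1.76 in L1low (log2 difference -0.07, exact permutation p = 0.1), which is the smallest p that 3 against 3 libraries allow. Adjusted over the 7 pairs by Benjamini-Hochberg, no p was under 0.35.

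Outside the 10 genes, 8 of 13 further BCL2 relatives had values, and none was called, where 7.95% of all genes were. Of the 8, 7 lay above 0 (median log2 fold change 0.15), beside 48.5% of all genes. BCL2, BNIP3 and BNIP3L had an unadjusted p under 0.05, beside 23.3% of all genes. BCL2, the founding guardian, was scarce, at 2.73, 3.80 and 2.56 CPM in L1high and 2.37, 1.67 and 1.92 in L1low (log2 fold change -0.61, adjusted p = 0.14 in edgeR). BNIP3, a mitophagy receptor, had the smallest p of the list, with a log2 fold change of 0.46 (adjusted p = 0.070, edgeR).

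Downstream of the mitochondria, none of 15 genes of the apoptosome and caspases was called over 6 libraries, where 7.95% of all genes were. Their median log2 fold change was -0.08, with 4 above 0 and 11 below, beside 48.5% of all genes above 0. CYCS, which encodes cytochrome c, had the smallest p there, at 175.5, 226.6 and 117.1 CPM in replicates 1, 2 and 3 of L1high and 124.5, 132.9 and 92.3 in L1low. Its log2 fold change was -0.57 (adjusted p = 0.10, edgeR), and over the 5 libraries without L1high replicate 3, the lowest of its group, it was -0.78 and called (adjusted p = 0.0045, edgeR). Of 7 inhibitor of apoptosis genes, 5 had values and none was called, beside the same 7.95% of all genes. BIRC3 had the smallest p of these (log2 fold change -0.34, adjusted p = 0.11 in edgeR).

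Death receptor genes gave 2 calls among 12 with values (16.7%, beside 7.95% of all genes), 1 in each direction. Their median log2 fold change was 0.10, with 9 above 0 and 3 below, beside 48.5% of all genes above 0. FAS, the receptor for FAS ligand, fell in L1low cells from 48.0, 53.6 and 43.0 CPM in replicates 1, 2 and 3 of L1high to 39.5, 37.0 and 35.0 (log2 fold change -0.38, adjusted p = 0.034 in edgeR). TNFRSF21 (death receptor 6) rose from 28.9, 27.6 and 29.8 CPM to 39.4, 38.1 and 38.2 (log2 fold change 0.42, adjusted p = 0.0079 in edgeR). The list gave no call without L1high replicate 1, and 1 call without L1high replicate 2, L1low replicate 2 or L1low replicate 3.

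Of 17 genes for turnover of BCL2 proteins and for their mitochondrial partners, 2 were called (11.8%, near the 7.95% of all genes). RTL10 (BOP), a mitochondrial protein with a BH3-like stretch, rose in L1low cells (log2 fold change 0.44, adjusted p = 0.0056 in edgeR), and DYNLL1, the dynein light chain that tethers BIM, fell (-0.29, adjusted p = 0.047 in edgeR). HUWE1, USP9X, FBXW7 and MARCHF5, which control the stability of MCL1 protein, were not called.

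Of 11 transcription factors that can induce BH3-only genes and had values, 5 were called (45.5%, beside 7.95% of all genes), 4 higher and 1 lower in L1low cells. Like the other lists, this one was chosen with earlier results of these data known, so its share cannot be read as an enrichment. TP63 rose by a log2 fold change of 1.12, TP73 by 0.71, ATF3 by 0.49 and FOXO3 by 0.31, and E2F1 fell by 0.51 on the log2 scale. Gene-level counts do not separate the isoforms of TP63 or TP73, and whether they induce BH3-only genes in these cells was not tested. FOXO3 was called over 6 libraries (adjusted p = 0.043, edgeR) but not over the 5 without L1high replicate 3 (adjusted p = 0.094). The log2 fold changes of the 5 BH3-only members themselves ran from -0.14 to 0.24.

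For gemcitabine, the drug used in the study's xenografts, 17 of 21 genes of uptake and metabolism had values. Of these, 2 were called (11.8%, near the 7.95% of all genes). RRM2, the ribonucleotide reductase subunit that supplies competing deoxynucleotides, fell in L1low cells (log2 fold change -0.56, adjusted p = 4.3e-04 in edgeR), and NME1, a nucleoside diphosphate kinase that overlaps the read-through gene NME1-NME2, fell as well (-0.34, adjusted p = 0.018). The other 15 were not called. Among them, the transporter SLC29A1 had a log2 fold change of -0.19 (adjusted p = 0.20, edgeR). The activating kinase DCK had -0.47 (adjusted p = 0.16, edgeR). Of the 17, 6 lay above 0 and 11 below (median log2 fold change -0.05), beside 48.5% of all genes above 0. In 5 of the 17 all L1low libraries lay below all L1high libraries and in 0 above, beside 13.7% and 15.2% of all genes. RRM2 and E2F1 are also among the 20 proliferation genes, and ATF3 among the 10 early-response genes.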

How the data were processed

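The authors sequenced stranded mRNA libraries with paired-end reads, used BWA for alignment to GRCh38, and took gene counts with featureCounts on the Ensembl 94 annotation. What they deposited is the unnormalized read count of each gene, for 19469 genes that each exceeded 1 CPM in at least 2 libraries. Strand and multi-mapping options and versions are not given in the sources used here. The submitters' processing notes also name DESeq2 without a role. BWA is not splice-aware.

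Symbols, lengths and coordinates came from GENCODE 44 (GRCh38), which matched 19344 identifiers. L1low was compared with L1high over all 6 libraries in R 4.3.3 with edgeR 4.0.16 (TMM factors, filterByExpr, quasi-likelihood test, Benjamini-Hochberg adjustment over 19467 genes, calls at an adjusted p under 0.05). The study's own comparison omits L1high replicate 3 without a stated reason, and that fit is given beside the main one. The standard error is the absolute log2 fold change divided by the square root of F, and intervals are at 95%. The median standard error was 0.07 for genes at a log2 CPM of 7 and above and 0.23 for those under 3, and intervals cover the spread between libraries only. No pair of libraries within a population was a duplicate: the closest had a chi-square of 3.66 for each degree of freedom. Pairs across the populations were not compared. The fit was tested on simulated data.

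The 10 members and all gene lists were chosen with earlier results of these data known. Genes named are the members, L1CAM, genes overlapping a member, and in each list the called genes (up to 4) or the gene with the smallest p. PPP1R3E, which overlaps BCL2L2, and GGNBP1, which overlaps BAK1, were not called. FOXO3, FOS, HSPA1A, HSPA1B, DNAJB1, HUWE1, USP9X, FBXW7, MARCHF5, BCL2, BNIP3L, SLC29A1, DCK, NME1-NME2 and the markers absent from the genes tested fall outside this rule. So do BAK1P1 and KRT7, named after their values were seen. The values of 1 listed gene are not reported here. Alternatives were other scalings, DESeq2 1.42.0, edgeR's exact test, other filters, the replicate number as a block and each replicate left out.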

Additional observations from a re-analysis of the deposited data

How the results depend on the processing

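The alternatives gave 444 values for 45 results. Of these, 391 made the same call or stayed near the reported value, 47 counts or ranks moved, 4 lost the call and 2 gene log2 fold changes reversed. Ratios were scored by distance and not by sign. The log2 difference of BCL2L1 to BAX went from 0.0077 to -0.018 without L1high replicate 1. Without L1low replicate 1 it was -0.046, and both values count among the 391. MCL1 kept a log2 fold change between 0.24 and 0.36 under all 14 alternatives. Its adjusted p ran from 0.0028 with the replicate block to 0.16 without L1low replicate 2 (edgeR, quasi-likelihood). Leaving out a library took the number of BCL2 family members called to between 0 and 1. The log2 fold change of PMAIP1 reversed to 0.021 (-0.25 without L1high replicate 3) and that of BCL2L2-PABPN1 to -0.052, both without L1high replicate 2. The cause was not tested.

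Leaving out a library gave 627 to 1473 calls over all genes (393 to 859 higher, 234 to 614 lower), with 627 without L1low replicate 2 and 674 without L1high replicate 1. In the same fits the calls ran from 0 to 1 among other BCL2 relatives, from 0 to 1 among apoptosome and caspase genes, from 0 to 2 among death receptor genes, from 1 to 2 among turnover genes and partners, from 3 to 5 among transcription factors, from 1 to 2 among gemcitabine genes, from 1 to 2 among epithelial markers, from 2 to 5 among sorting stress genes and from 3 to 8 among proliferation genes. The replicate numbers were not shown to pair the libraries: same-numbered deviations correlated at 0.07, 0.09 and 0.21, although all 6 libraries correlated best with their own number. With the replicate block, 2363 genes were called (1143 lower), with 2 among other BCL2 relatives, 1 among apoptosome and caspase genes and 1 among inhibitors of apoptosis, and MCL1 as the only member. Other BCL2 relatives gave 1 call with DESeq2 and 1 with the exact test, which also gave 1 among apoptosome genes. By canonical transcript length, chosen after seeing the data, BID ranked 4, BAK1 5, BCL2L11 7 and PMAIP1 8 by level. No filter and the 6-library filter differ by 2 genes and test little. Genes with few reads, BIK and BBC3 above all, could hide modest differences at this depth.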
